A study of Mus musculus with 20 samples.

Results

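The 10 genes, known as markers of astrocytes, followed through 6 RNA libraries of mouse brain were Gfap, S100b, Aldoc, Aldh1l1, Slc1a2, Slc1a3, Glul, Aqp4, Gja1 and Gjb6. They were chosen by symbol, with earlier results of these data known, as 10 of the 34620 gene symbols in the count tables. All 10 had reads in each of the 6 libraries and all 10 passed the filter on low counts, which 19192 symbols passed. The series follows the hippocampal and striatal neural lineages from precursors to neurons. Its 14 bisulfite libraries are not analysed here. The RNA groups were striatal precursors (SP, 1 library), hippocampal precursors (HP, 1 library), young medial spiny neuron tissue of the striatum (yMSN, 1 library), young hippocampal CA pyramidal neuron tissue (yCA, 1 library) and dorsal medial spiny neuron tissue of the striatum (dMSN, 2 libraries). All were labelled male C57BL/6 wild-type brain, with no age given. Each was microdissected from frozen brain sections, so a library named for a neuron holds every cell of the dissected piece. In such bulk tissue fewer cells of a type and less RNA per cell cannot be told apart. Nothing in the labels says that the 2 dMSN libraries came from different animals, so p-values measure only the spread between these samples, which may be technical.

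Astrocytes are the glia that wrap synapses and blood vessels. They clear glutamate from the synaptic cleft through the transporters GLT-1 (Slc1a2) and GLAST (Slc1a3), turn it into glutamine with glutamine synthetase (Glul), pass water through aquaporin-4 (Aqp4) at their vascular endfeet, and are coupled into networks by connexin 43 (Gja1) and connexin 30 (Gjb6). GFAP is their intermediate filament, S100B a calcium-binding protein, aldolase C (Aldoc) their brain-type glycolytic aldolase and ALDH1L1 a folate enzyme. They form from radial glia after most neurons have been born, and radial glia already use some of these genes, among them Slc1a3 and Gja1.

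The sequence just upstream of the transcription start is shown for 5 of the genes because DNA methylation, the subject of the series, acts on CpG dinucleotides, and because the 5 span the range of early levels: Gfap, S100b and Aldoc were scarce in precursors, while Slc1a3 and Glul were already well expressed there. The sequences are from RefSeq, build GRCm38.p6, cover the 250 bases before the annotated start, run 5′ to 3′ on the gene's strand, and have CpG in capitals. They lie at chr11:102897201-102897450 (Gfap, minus strand), chr10:76253586-76253835 (S100b, plus strand), chr11:78322823-78323072 (Aldoc, plus strand), chr15:8710808-8711057 (Slc1a3, minus strand) and chr1:153899679-153899928 (Glul, plus strand).
Gfap: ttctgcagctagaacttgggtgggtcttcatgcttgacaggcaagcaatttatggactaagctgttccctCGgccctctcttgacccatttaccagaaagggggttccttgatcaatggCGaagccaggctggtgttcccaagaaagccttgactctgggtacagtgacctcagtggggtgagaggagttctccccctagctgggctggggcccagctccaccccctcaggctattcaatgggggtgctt
S100b: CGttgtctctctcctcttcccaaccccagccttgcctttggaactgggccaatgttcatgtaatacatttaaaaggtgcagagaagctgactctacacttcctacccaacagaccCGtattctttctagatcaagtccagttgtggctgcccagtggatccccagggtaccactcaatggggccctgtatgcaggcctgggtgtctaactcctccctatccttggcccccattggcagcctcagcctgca
Aldoc: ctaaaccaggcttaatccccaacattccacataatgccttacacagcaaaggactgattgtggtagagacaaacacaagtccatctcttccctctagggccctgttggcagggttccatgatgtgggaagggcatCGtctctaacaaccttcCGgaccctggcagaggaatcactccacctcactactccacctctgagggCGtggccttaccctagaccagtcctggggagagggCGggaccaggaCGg
Slc1a3: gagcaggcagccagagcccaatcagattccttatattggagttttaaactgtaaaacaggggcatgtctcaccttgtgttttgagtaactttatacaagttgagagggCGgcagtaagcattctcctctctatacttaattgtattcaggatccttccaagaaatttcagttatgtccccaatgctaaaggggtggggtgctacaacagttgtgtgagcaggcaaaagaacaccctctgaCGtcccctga
Glul: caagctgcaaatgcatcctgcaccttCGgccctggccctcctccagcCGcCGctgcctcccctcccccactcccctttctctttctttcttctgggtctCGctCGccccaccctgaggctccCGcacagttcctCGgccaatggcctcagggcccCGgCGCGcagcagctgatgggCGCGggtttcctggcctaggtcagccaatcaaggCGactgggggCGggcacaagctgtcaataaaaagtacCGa

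These windows hold 2 CpG for Gfap, 2 for S100b, 5 for Aldoc, 2 for Slc1a3 and 15 for Glul, against a median of 6 over all 32851 windows of that length in the RefSeq table. Windows were found for 9 of the 10 genes, and the other 4 held 7 CpG (Aldh1l1), 6 (Gja1), 5 (Gjb6) and 1 (Slc1a2, at an internal start). Slc1a3 had the same number of CpG as Gfap and S100b. Any link between CpG number and precursor level was not tested. Short motifs were searched on both strands of the 250 bases, and overlaps between motifs were counted for each. The half-site of NFI, a factor family known in gliogenesis, is TTGGC, and it was in 4 of 9 windows (S100b, Glul, Slc1a2 and Aldoc) and in 41.5% of all windows. The palindrome TTCNNNGAA, bound by STAT factors, was in 1 of 9 (Slc1a3) and in 7.02% of all windows. A second annotated start of Aldoc, with 3 CpG, held it 2 times. The E-box CANNTG was in 7 of 9 and in 66.2% of all windows. These are letter matches in 1 window per gene and were not tested against the expression values.

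Depth was 152347673 and 145713678 counts in genes for dMSN and 31282185 to 36969136 for the 4 single libraries, so a count of 0 allows a level of up to 0.0249 to 0.0861 CPM, by counting error only. Levels are counts per library size (CPM), scaled by the trimmed mean of M values (TMM), and compare libraries but not genes, since transcript lengths were not used. The dMSN libraries held striatal projection neuron markers (Ppp1r1b at 2575 and 2473 CPM) together with the cortical and hippocampal excitatory marker Slc17a7 (936 and 1487 CPM) and the choroid plexus gene Ttr (5463 and 4293 CPM). Both young libraries held RNA of tissues outside the brain. The 15 skeletal muscle genes summed to 2890 CPM in yMSN and 7995 CPM in yCA, against 22.6 to 106 CPM in the other libraries, with none of the 15 at 0 in either young library. Xist, transcribed from the inactive X chromosome of females, stood at 489 to 1088 CPM in the 4 single libraries, which is against their male label, and at 4 and 0 counts in dMSN. Reads of Kdm5d, Ddx3y and Eif2s3y, 3 genes of the Y chromosome, numbered 0 in SP, 672 in HP, 2108 in yMSN, 0 in yCA, and 8258 and 9348 in dMSN, so HP and yMSN held both Xist and Y-linked reads. As all 4 single libraries carry Xist, no comparison between cell groups below is free of such a library.

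Of the 10 genes, 9 were higher in dMSN than in yMSN and 1, Gja1, did not pass the test. The changes ran from 2.23-fold for Slc1a3, the glutamate transporter shared with radial glia, to 117-fold for Gfap, the astrocyte filament. Over all 19192 genes tested, 67.5% were called in this comparison (32.1% higher and 35.4% lower), so a call was the common outcome, and it is the direction and size of the 9 that describe the group. The median log2 change of the 10 was 2.84, beside -0.11 for all genes tested, or -0.27 with upper quartile scaling. The test was edgeR's quasi-likelihood F test with Benjamini-Hochberg adjustment over all 19192 genes and a threshold of 0.05, with 1 mean per cell group. Its spread comes from the dMSN pair alone, so yMSN is assumed to vary like that pair. With both hippocampal libraries left out, an alternative chosen after seeing the data, 9 members were again higher, where 64.4% of all genes were called. That fit compares the same dMSN and yMSN libraries with spread from the same pair, so it is not a separate check.

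**Figure D1:**
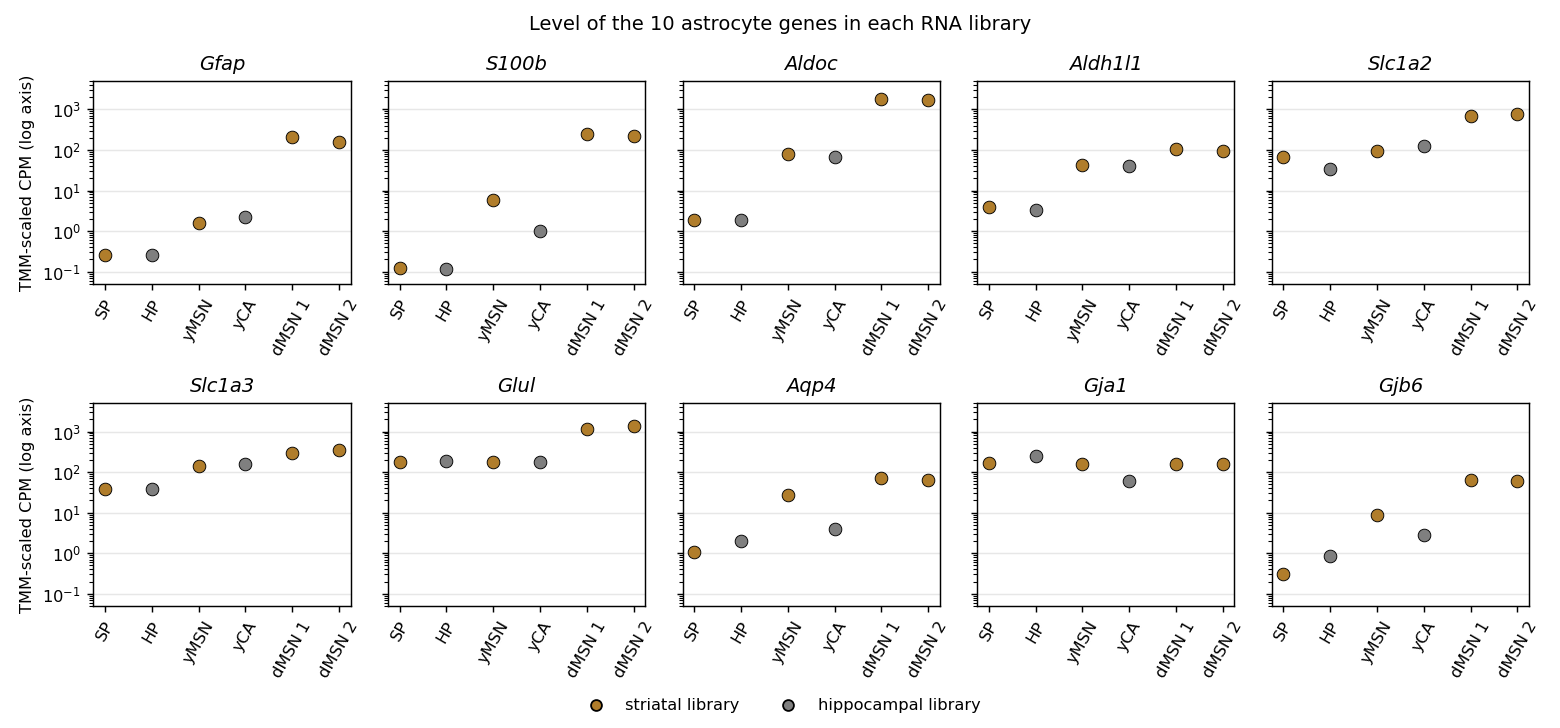
Level of each gene (TMM-scaled CPM, log axis) in the 6 libraries, 1 point per library, brown for striatal and grey for hippocampal tissue. Of the 10 genes, 9 are highest in the 2 dMSN points, while Gja1 is highest in HP at 251 CPM.

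Gfap, the filament protein used to stain astrocytes, had 0.252 CPM in SP, 0.258 in HP, 1.54 in yMSN, 2.19 in yCA, and 205 and 157 in dMSN (mean 181 ± 34.0, SD, n = 2). Both dMSN libraries stood far above the other 4, where Gfap rested on 9 to 85 reads. It was 117-fold higher in dMSN than in yMSN (log2 change 6.87, SE 0.334, adjusted p = 7.2e-09). S100b, the calcium-binding protein, had 0.126 CPM in SP, 0.115 in HP, 5.76 in yMSN, 1.00 in yCA, and 249.7 and 223 in dMSN (236 ± 19.1). The precursor values rest on 5 reads in SP and 4 in HP, close to the limit of 3 counts. S100b was 41.0-fold higher in dMSN than in yMSN (log2 change 5.36, SE 0.271, adjusted p = 9.5e-09).

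Aldoc, the aldolase of astrocytes and of some Purkinje cells, had 1.86 CPM in SP, 1.92 in HP, 80.7 in yMSN, 68.7 in yCA, and 1849 and 1662 in dMSN (1756 ± 132). The 3 stages did not overlap, with the young pair between precursors and dMSN. Aldoc was 21.8-fold higher in dMSN than in yMSN (log2 change 4.44, SE 0.285, adjusted p = 6.1e-08). Aldh1l1, which oxidises formyl-tetrahydrofolate and labels nearly all astrocytes, had 4.03 CPM in SP, 3.27 in HP, 42.3 in yMSN, 40.1 in yCA, and 105 and 95.9 in dMSN (101 ± 6.77). It also fell into 3 levels by stage, but its last step was small: 2.38-fold higher in dMSN than in yMSN (log2 change 1.25, SE 0.216, adjusted p = 2.5e-04).

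The 3 genes of glutamate uptake and recycling followed 3 courses. Slc1a2, the main transporter of the mature forebrain, had 68.8 CPM in SP, 33.7 in HP, 92.3 in yMSN, 126 in yCA, and 677 and 789 in dMSN (733 ± 78.9). Both dMSN libraries were above all others, and the young pair lay between SP and dMSN. The dMSN level was 7.94-fold that of yMSN (log2 change 2.99, SE 0.252, adjusted p = 6.0e-07). Slc1a3, the transporter that radial glia also carry, had 38.2 CPM in SP, 39.2 in HP, 145 in yMSN, 160 in yCA, and 295 and 354 in dMSN (324 ± 41.9). Here precursors, young tissue and dMSN formed 3 separate levels, the 2 lineages lay close together at each of the 2 stages where both were measured, and the dMSN level was 2.23-fold that of yMSN (log2 change 1.16, SE 0.221, adjusted p = 5.5e-04). Glul, glutamine synthetase, had 173 CPM in SP, 185 in HP, 181 in yMSN, 174 in yCA, and 1160 and 1392 in dMSN (1276 ± 164). The 4 libraries other than dMSN lay between 173 and 185 CPM, and dMSN was 7.04-fold higher than yMSN (log2 change 2.82, SE 0.263, adjusted p = 1.4e-06).

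The water channel and the connexins differed among themselves. Aqp4 had 1.06 CPM in SP, 1.95 in HP, 27.9 in yMSN, 4.01 in yCA, and 71.3 and 65.4 in dMSN (68.3 ± 4.16). The yMSN library was far above yCA and SP and below both dMSN libraries, and dMSN was 2.45-fold higher than yMSN (log2 change 1.29, SE 0.230, adjusted p = 3.2e-04). That call was lost in a model of lineage plus stage (log2 change 1.87, adjusted p = 0.0913). This model sets dMSN against a young striatal level fitted from the 4 single libraries, not against yMSN alone. Its spread comes from the 4 single libraries and the dMSN pair. Gjb6, connexin 30, had 0.302 CPM in SP, 0.833 in HP, 8.54 in yMSN, 2.75 in yCA, and 63.1 and 61.2 in dMSN (62.1 ± 1.30). It was 7.27-fold higher in dMSN than in yMSN (log2 change 2.86, SE 0.261, adjusted p = 1.2e-06). Gjb6 also passed in the lineage and stage model with all 6 libraries (log2 change 3.30, adjusted p = 0.0099). It did not pass there with either dMSN library left out (log2 change 3.34 without dMSN 1 and 3.38 without dMSN 2).

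Gja1, connexin 43, had 167 CPM in SP, 251 in HP, 156 in yMSN, 61.0 in yCA, and 155 and 160 in dMSN (158 ± 3.99). The 4 striatal libraries lay between 155 and 167 CPM at every stage, HP was above them and yCA below. Its log2 change in dMSN against yMSN was 0.02 (SE 0.199, adjusted p = 0.950), and it turned to -0.14 under upper quartile scaling, without passing under either. Gja1 is also made by radial glia, endothelium, bone and cartilage, and the 12 bone and cartilage genes summed to 1175 CPM in SP, 1325 in HP, 12136 in yMSN, 1061 in yCA, and 55.1 and 52.2 in dMSN. In SP, HP and yCA these sums came almost all from the collagen genes Col1a1, Col1a2 and Col2a1. The median of the 12 was 1.11 CPM in SP, 0.861 in HP, 39.6 in yMSN, 1.76 in yCA, and 1.26 and 0.820 in dMSN. The part of bone and cartilage in the Gja1 level was not tested.

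Against striatal precursors 9 members were higher in dMSN, none was lower and Gja1 did not pass. This comparison shares the dMSN libraries with the one above, and 72.1% of all genes were called in it (39.1% higher and 33.1% lower). The members' median log2 change was 5.33 and that of all genes 0.20, or 0.08 with RLE scaling. With both young libraries left out, again an alternative chosen after seeing the data, 9 members were higher, where 71.2% of all genes were called. The dMSN and SP libraries compared there are the same, so it is not a separate check either. S100b showed a log2 change of 10.85 (SE 0.403), Aldoc 9.88 (SE 0.381), Gfap 9.48 (SE 0.408) and Gjb6 7.68 (SE 0.379). Aqp4 (6.01), Aldh1l1 (4.64), Slc1a2 (3.41), Slc1a3 (3.09) and Glul (2.88) rose less, with adjusted p-values of 7.4e-09 to 7.9e-07. Gja1 had a log2 change of -0.08 (SE 0.198, adjusted p = 0.731).

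In young tissue set against precursors, over both lineages, 6 of the 10 were higher, none was lower and 4 did not pass. Of all genes, 35.4% were called (21.7% higher and 13.7% lower), and the members' median log2 change was 2.86 beside 0.10 for all genes. The fit had terms for lineage and stage and 2 residual degrees of freedom, and its 2 replicates of each stage are 1 library per lineage. Higher calls were 61.3% of all calls with TMM scaling and 51.2% with DESeq2, and with RLE scaling the median of all genes was -0.02. Of the 6, Aldoc rose 39.3-fold (log2 change 5.30, SE 0.225, adjusted p = 0.0010) and S100b 26.2-fold (4.71, SE 0.488, adjusted p = 0.0032). Aldh1l1 rose 11.3-fold (3.50, SE 0.172, adjusted p = 0.0011), Gjb6 8.99-fold (3.17, SE 0.720, adjusted p = 0.024), Gfap 7.16-fold (2.84, SE 0.296, adjusted p = 0.0033) and Slc1a3 3.95-fold (1.98, SE 0.172, adjusted p = 0.0023).

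The other 4 did not pass, with unlike values. Glul had a log2 change of -0.01 (SE 0.186, adjusted p = 0.965). Aqp4 had a log2 change of 2.88 with an SE of 0.913 (adjusted p = 0.061), and Slc1a2 had 1.16 with an SE of 0.375 (adjusted p = 0.064). Gja1 had -1.07 with an SE of 0.469 (adjusted p = 0.134). Leaving out dMSN 1 or dMSN 2 cut the calls over all genes to 3590 or 3647, against 6798 with both, and the Gjb6 call went with them (adjusted p = 0.0784 and 0.0762). With a hippocampal library left out Aqp4 passed with a log2 change of 4.71 (HP) or 4.61 (yCA), and with a striatal one at 1.03 (SP) or 1.04 (yMSN). Slc1a2 (1.90) and Gja1 (-2.04) also passed without SP or yMSN, but not without HP, where Slc1a2 was at 0.42 (adjusted p = 0.225) and Gja1 at -0.10 (adjusted p = 0.763), or without yCA (0.32 and -0.20). Each of these fits sets 1 young library against 1 precursor library of the same lineage, with its spread from the dMSN pair. Of the 6 that rose, S100b stood at 5.49 without HP, 5.39 without yCA, 3.10 without SP and 3.11 without yMSN, and Gjb6 at 4.81, 4.71, 1.72 and 1.72 in the same order.

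**Figure D2:**
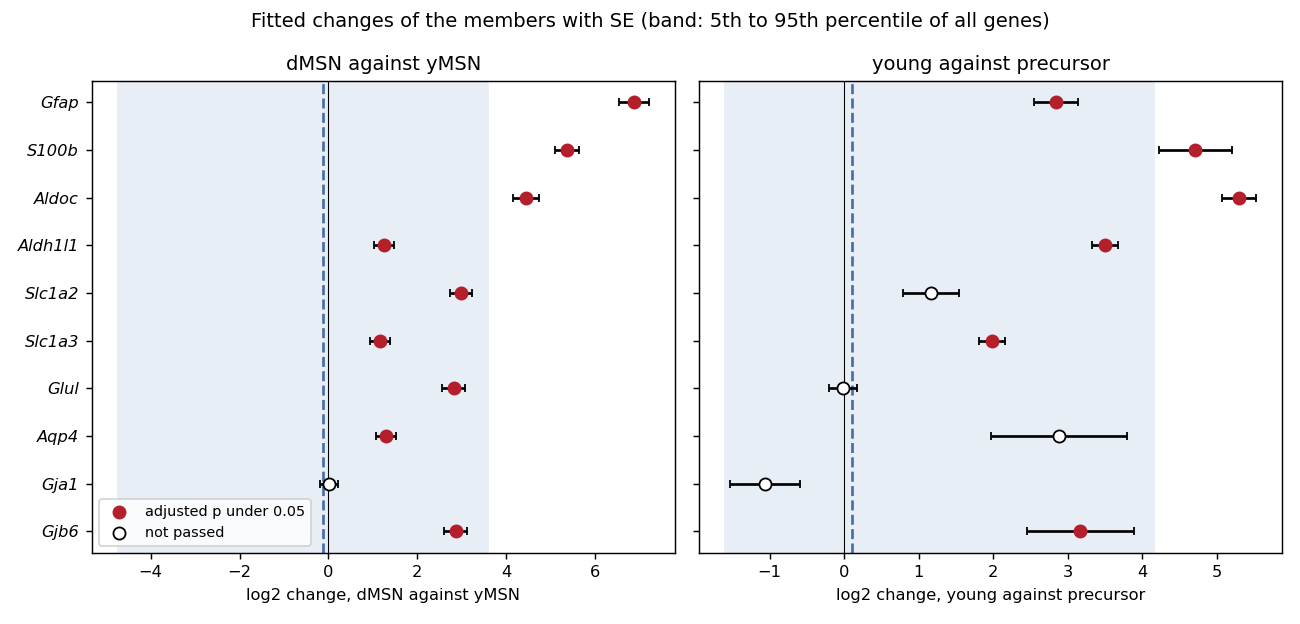
Fitted log2 change of each gene with its SE, in dMSN against yMSN on the left and in young tissue against precursors on the right, filled where the adjusted p was under 0.05. The dashed line is the median of all 19192 genes and the band their 5th to 95th percentile. Gfap, S100b and Aldoc lie above the band on the left, and S100b and Aldoc on the right.

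Taken lineage by lineage, these comparisons set 1 library against 1 and carry no test, and their 95% intervals cover counting error only. In the striatum 7 members were at least 2-fold higher in yMSN than in SP and none was 2-fold lower, where 27.2% of all genes were at least 2-fold higher and 9.87% lower. In the hippocampus 8 were at least 2-fold higher in yCA than in HP and 1 lower, where 24.7% of all genes were higher and 14.6% lower. Aldoc had nearly the same ratio in both lineages, 43.3 (34.4 to 55.3) in yMSN over SP and 35.7 (28.0 to 46.2) in yCA over HP. Slc1a3 was as alike, at 3.81 (3.60 to 4.03) and 4.09 (3.86 to 4.34), and so was Aldh1l1, at 10.5 (8.93 to 12.4) and 12.3 (10.1 to 15.0). Slc1a2 differed, with 1.34 (1.28 to 1.41) in yMSN over SP and 3.74 (3.51 to 3.99) in yCA over HP, after starting 2.04 times as high in SP as in HP (1.91 to 2.19). Aqp4 had a ratio of 26.4 (19.4 to 36.8) in yMSN over SP and 2.05 (1.54 to 2.77) in yCA over HP. Gjb6 had 28.3 (15.99 to 55.2) in yMSN over SP and 3.30 (2.17 to 5.17) in yCA over HP, and S100b had 45.7 (19.3 to 142) and 8.73 (3.15 to 33.6) in the same order. Gja1 was 0.936 (0.904 to 0.968) in yMSN over SP and 0.243 (0.232 to 0.254) in yCA over HP.

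The 4 members Aqp4, S100b, Gjb6 and Gja1 were at least 2-fold higher in yMSN than in yCA, 1 library against 1, and none was 2-fold lower. Aqp4 stood 6.95 times as high in yMSN as in yCA (5.88 to 8.27), S100b 5.74 times (4.08 to 8.27) and Gjb6 3.11 times (2.50 to 3.89). Gja1 was 2.56 times as high (2.44 to 2.68), and the other 6 lay between 0.706 for Gfap and 1.17 for Aldoc. Of all genes, 14.0% were at least 2-fold higher in yMSN than in yCA and 3.64% lower. In the precursors Aqp4, Gjb6 and Gja1 lay the other way, at 0.541, 0.363 and 0.665 times as high in SP as in HP. All 4 genes that were higher in yMSN are also known outside the brain, Aqp4 in airway epithelium, S100b in cartilage, Gjb6 in epidermis and Gja1 in bone and cartilage. The 12 olfactory and airway genes summed to 531 CPM in yMSN and 42.7 CPM in yCA (Scgb1a1 and Obp1a at 0 in both), and the 12 bone and cartilage genes to 12136 CPM in yMSN and 1061 CPM in yCA (none at 0). The 12 epidermal genes summed to 546 CPM in yMSN and 377 CPM in yCA, again with none at 0. The part of these tissues in the 4 levels was not tested. Bpifa1, an airway secretory gene, had 319 CPM in yMSN and 0.463 CPM in yCA.

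Fitted over both stages, striatal against hippocampal tissue gave no call in any of the 19192 genes by edgeR's quasi-likelihood test, with 826 genes at an unadjusted p under 0.05, 60 genes called by DESeq2 and 0 by limma voom. None of the 10 passed. S100b had the largest size among them, a log2 change of 2.21 (SE 0.428, adjusted p = 0.896) that stood at 0.13 without yCA or yMSN, followed by Aqp4 at 1.20 (SE 0.904, adjusted p = 1.00). Slc1a3 was at -0.09 (SE 0.166) and Glul at -0.02 (SE 0.186). With HP or SP left out the fit sets yMSN against yCA, 1 library against 1 with the spread from the dMSN pair, and there Aqp4, S100b, Gja1 and Gjb6 passed, as did 7.81% of all genes without HP and 7.92% without SP.

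As a description of when each gene reached its later level, yMSN was set as a percent of the mean dMSN level. Gja1 stood at 98.9%, Slc1a3 at 44.9%, Aldh1l1 at 42.0% and Aqp4 at 40.8%. Glul (14.2%), Gjb6 (13.7%) and Slc1a2 (12.6%) were intermediate. Aldoc stood at 4.60%, S100b at 2.44% and Gfap at 0.854%. Aldoc had both a large early ratio and a low early share, as it was 43.3 times its SP level in yMSN and still under 5% of dMSN. None of the 10 was confined to dMSN in the sense of being at 0 elsewhere. The hippocampal young library gave much the same order for Slc1a3 (49.5%), Aldh1l1 (39.9%), Aldoc (3.91%) and Gfap (1.21%), and lower shares for Gja1 (38.7%), Aqp4 (5.87%), Gjb6 (4.43%) and S100b (0.425%).

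**Figure D3:**
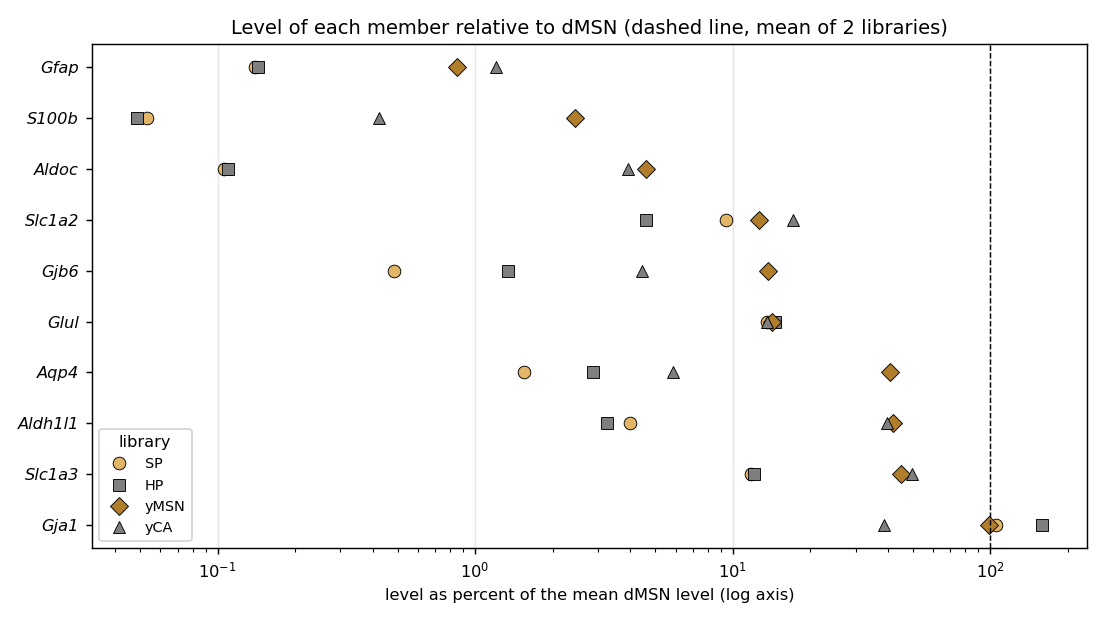
Level of each gene in SP, HP, yMSN and yCA as percent of its mean dMSN level (log axis, dashed line at 100), ordered by the yMSN share. The points spread from 0.0486% for S100b in HP to 159% for Gja1 in HP, and for Glul the 4 libraries coincide near 14%.

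Ratios between relatives within a library free the comparison across libraries from gene length and scaling. The ratio of Slc1a2 to Slc1a3 was 1.80 in SP, 0.860 in HP, 0.635 in yMSN, 0.785 in yCA, and 2.30 and 2.23 in dMSN. It was highest in dMSN and lowest in the young pair, with SP nearer to dMSN than HP was. The ratio of Gjb6 to Gja1 was 0.0018 in SP, 0.0033 in HP, 0.0548 in yMSN, 0.0451 in yCA, and 0.407 and 0.382 in dMSN, so the stages did not overlap. The ratio of Aldoc to Aldoa, the aldolase of most tissues and of muscle, was 0.0057 in SP, 0.0048 in HP, 0.225 in yMSN, 0.173 in yCA, and 0.417 and 0.407 in dMSN. Aldoa rose too in dMSN (4435 and 4085 CPM, against 358 CPM in yMSN), and the ratio moved less than Aldoc itself. The ratio of Gfap to Vim, the filament gene of radial glia and of many non-neural cells, was 0.0002 in SP, 0.0003 in HP, 0.0021 in yMSN, 0.0043 in yCA, and 3.73 and 3.18 in dMSN.

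**Figure D4:**
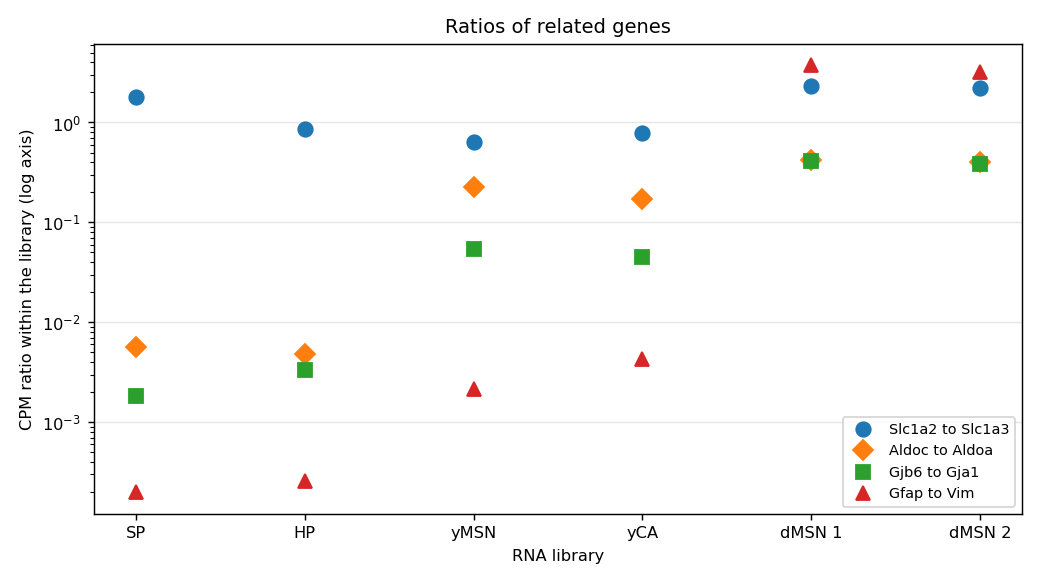
CPM ratio of 4 pairs of related genes within each library (log axis), 1 point per library. The Gfap to Vim ratio is highest in the 2 dMSN libraries, at 3.73 and 3.18, and the Slc1a2 to Slc1a3 ratio is lowest in yMSN at 0.635.

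The 2 dMSN libraries differed from each other by more than counting error but far less than from yMSN. Gfap, Aqp4, Aldh1l1, S100b, Gjb6 and Aldoc were higher in dMSN 1, by log2 ratios of 0.04 to 0.39. Slc1a2, Slc1a3, Glul and Gja1 were higher in dMSN 2, with log2 ratios of dMSN 1 over dMSN 2 between -0.26 and -0.05. Over all 19192 genes tested, 9610 were higher in dMSN 1, with a median log2 ratio of 0.0007, so the split of the 10 members is near that share. Of 16 further genes of glutamate, GABA and amino acid handling 9 were higher in dMSN 1, also near it, with a median log2 ratio of 0.08. Among 31 other known astrocyte markers 20 were higher in dMSN 1, with a median of 0.09. In the same pair 14 of 14 oligodendrocyte lineage genes and 9 of 10 ependymal and choroid plexus genes were higher in dMSN 1, while 9 of 13 neuronal genes were higher in dMSN 2. The part of these other cell types in the members' differences was not tested.

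Of 31 other known astrocyte markers, 28 were higher in dMSN than in yMSN, 2 were lower (Bmpr1b and Hapln1) and 1 did not pass (Sox9), these last 3 named after their values were seen. The median log2 change of the 31 was 2.86, beside -0.11 for all genes, of which 32.1% were higher and 35.4% lower. The neurotensin receptor Ntsr2 had 292 and 243 CPM in dMSN and 0.184 in yMSN (log2 change 10.49, SE 0.399, adjusted p = 1.6e-09), and was at 0 in SP and HP. Gpr37l1, an orphan receptor of glia, had 399.9 and 332 CPM in dMSN and 0.345 in yMSN, and was also at 0 in both precursors. Itih3 and the zinc transporter Slc39a12 rose by log2 changes of 8.07 and 6.88. These genes were named for the size of their change. In yMSN Ntsr2 rested on 8 reads, Gpr37l1 on 15, Itih3 on 13 and Slc39a12 on 20, so the sizes are loosely set. In young tissue against precursors 18 of the 31 were higher and 4 lower, with a median log2 change of 1.27. Of all genes 21.7% were higher and 13.7% lower there, with a median of 0.10. The yMSN share of the dMSN level had a median of 13.8% over the 31 and 14.0% over the 10, with 11 of 31 and 3 of 10 under 5%. The shares ranged from 0.0688% to 231% over the 31 and from 0.854% to 98.9% over the 10. The share over all genes was not computed, so the medians describe these lists only.

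Counts in this paragraph stand beside 32.1% of all genes higher and 35.4% lower in dMSN than in yMSN. Of 16 further genes of glutamate, GABA and amino acid handling, 11 rose in dMSN against yMSN and 3 fell. The aspartate aminotransferase Got1 rose by a log2 change of 3.54, the glutamine transporter Slc38a3 by 2.30 and the GABA transporter Slc6a11 by 2.24, while the neutral amino acid transporter Slc1a5 fell (-3.26). Of 12 genes of potassium, water and the vascular endfoot, 8 rose and 3 fell. The potassium channel genes Kcnj16 (4.13) and Kcnj10 (3.80), Mlc1 (3.67) and the sodium pump subunit Atp1b2 (3.67) rose most. All 10 genes for secreted proteins, metallothioneins and lipid carriers rose, with a median log2 change of 4.74. Apoe had 5433 and 4156 CPM in dMSN and 129 CPM in yMSN, and Ptgds, which oligodendrocytes and the meninges also make, had 1477 and 1243 CPM in dMSN and 29.1 CPM in yMSN.

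Counts for the gene families of the members are set beside the 32.1% of all genes that were higher and the 35.4% that were lower in dMSN than in yMSN, and counts near these shares describe the members of a family, not a result about it. Of 11 other gap junction genes 4 rose in dMSN against yMSN and 5 fell, and those that rose included Gjb1 (6.75) and Gjc3 (3.71), known as connexins of oligodendrocytes, and the pannexin Panx2 (3.33). Of 6 other aquaporins tested, 3 rose and 3 fell. Aqp3, Aqp5 and Aqp1, the water channels of epithelia and choroid plexus, fell (-8.46, -4.38 and -3.22). Aqp3 had 0.0582 and 0.190 CPM in dMSN and 44.2 CPM in yMSN. Of 9 other S100 genes 4 rose and 3 fell, with S100a13 (3.17) and S100a1 (3.04) up and S100a8 and S100a11 (both -2.93) down. Of 11 folate genes tested, 2 rose and 7 fell, so the rise of Aldh1l1 was not shared by its mitochondrial relative Aldh1l2 (4.2 and 3.69 CPM in dMSN, 34.8 CPM in yMSN), nor by Tyms or Shmt1, which serve DNA synthesis and fell (-2.63 and -2.01). Of 11 other intermediate filament genes 4 rose and 6 fell. The neurofilament Nefh rose by 6.24, and Nes, Lmnb1 and the muscle filament Des fell (-5.43, -4.37 and -5.75). Of 17 further genes of glycolysis, glycogen and lactate 8 rose and 4 fell, with Aldoa (3.57) and Ldhb (2.99) up and the hexokinase Hk2 (-3.09) down.

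Gene lists for the formation and activation of astrocytes are described in the same way. Of 29 transcription factors and signals of gliogenesis, 6 rose, 12 fell and 11 did not pass in dMSN against yMSN, a share of calls near that of all genes. Nfib, which drives gliogenesis, had 31.2 CPM in SP, 40.3 in HP, 331 in yMSN, 650 in yCA, and 77.1 and 79.4 in dMSN, so it was highest in young tissue (log2 change -2.08 in dMSN against yMSN, 3.71 in young tissue against precursors, both passing). Dnmt1, the maintenance DNA methyltransferase, fell (-1.96), and the Notch target Hes5 and the cytokine receptor Cntfr rose by 1.93 and 1.78. Of 20 genes known from reactive astrocytes 13 fell and 5 rose, with a median log2 change of -2.27. Emp1, Ptx3, Lcn2 and Timp1 fell (-6.17, -5.67, -5.24 and -5.05). Of 12 genes by which astrocytes promote or prune synapses, 9 fell and 2 rose. Thbs1, Tnc and Thbs2 fell (-6.10, -5.38 and -4.53), and Sparcl1 rose to 1840 and 2147 CPM in dMSN, against 208 CPM in yMSN. In dMSN against SP 7 of the 20 reactive genes were higher and 8 lower, with a median of -0.12. Of the 12 synapse genes 4 were higher and 6 lower against SP, with a median of -0.45, beside 39.1% and 33.1% of all genes. The yMSN library also held RNA of tissues outside the brain, whose part in the falls against yMSN was not tested.

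Genes of other cell types moved over the same interval, in which 32.1% of all genes were higher and 35.4% lower. In dMSN against yMSN 12 of 14 oligodendrocyte lineage genes, 12 of 13 neuronal genes and 9 of 10 microglial genes rose, with median log2 changes of 4.18, 3.75 and 2.86, while 8 of 14 radial glial genes fell and 3 rose, with a median of -1.94. Of 12 genes of endothelium and pericytes 9 fell and 2 rose, with a median of -2.29. The 10 astrocyte genes summed to 454 CPM in SP, 517 in HP, 742 in yMSN, 640 in yCA, and 4829 and 4959 in dMSN. The oligodendrocyte genes summed to 9762 and 8329 CPM in dMSN and 383 in yMSN, and the neuronal genes to 17798 and 21194 CPM in dMSN and 1827 in yMSN. All muscle genes (15 of 15) and 11 of 12 bone and cartilage genes fell. The part of these other cell types and tissues in the members' changes was not tested.

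**Figure D5:**
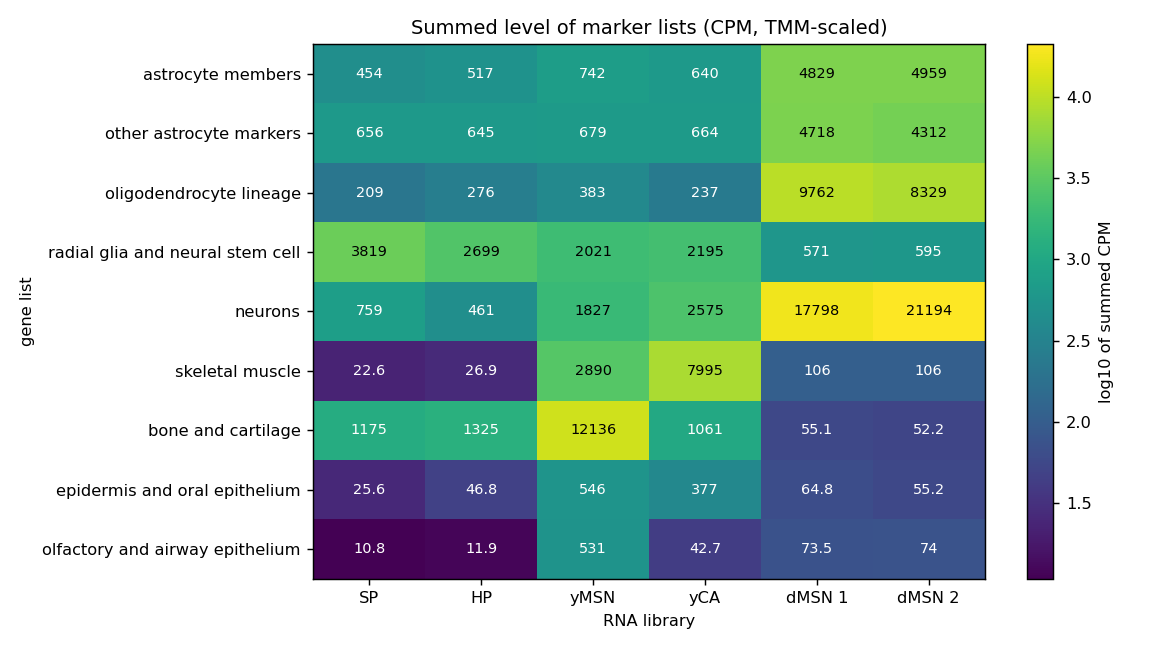
Summed CPM of marker lists (rows) in each library (columns), with the value in each cell and colour on a log10 scale. The 10 astrocyte genes and 31 other markers are high in the 2 dMSN columns only, the muscle and epidermal lists are highest in the 2 young columns, and the bone and olfactory lists in yMSN.

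Genes whose course over the 5 cell groups lay nearest to that of Gfap, by Euclidean distance between centred log2(CPM + 0.1) profiles among 11696 genes, were Pcsk1n, Gjb1, Ptk2b, Chchd10 and Rasd2 (distances 0.587 to 0.824). For Slc1a2 they were Pld5, Pnoc, Klhdc8a, Atp6v0a1 and Ociad2 (0.230 to 0.495), and for Slc1a3 they were Myl6b, Trpv2, Ampd3, Orai2 and Mras (0.214 to 0.310). None of the 10 astrocyte genes was among the nearest 5 of another of these 3. Pcsk1n, a peptide of neuroendocrine secretory granules, had 9.57 CPM in SP, 5.66 in HP, 32.9 in yMSN, 45.8 in yCA and a mean of 3176 in dMSN. With 5 groups, such likeness is a description only.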

How the data were processed

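The authors deposited 1 table of raw read counts for each polyA RNA library, with 1 line per gene symbol. The submitters' processing notes name TopHat2 2.0.2, Bowtie 1.0.0, HTSeq and edgeR among the tools and mm9 and NCBIM37 as builds; their roles and the strand setting are not given in the sources used here. The 5 summary lines of the counter were left out: 5.34% to 9.81% of reads fell in no feature, 1.38% to 2.01% were ambiguous and 17.3% to 27.3% were not unique.

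Tests were run with edgeR 4.0.16 under R 4.3.3 (TMM scaling, filterByExpr by group, quasi-likelihood F tests, Benjamini-Hochberg over 19192 genes). The dMSN comparisons used 1 mean per group and the others lineage plus stage. DESeq2 1.42.0, limma 3.58.1 voom, other scalings and filters and each library left out were the alternatives. Code was tested on simulated data. Single pairs of libraries have no test, and their 95% intervals are exact binomial. The 10 members and the lists were chosen with earlier results of these data known. Named genes of other lists are up to 4 per list with at least 1 CPM somewhere, by size of change in dMSN against yMSN. Some genes that this rule names are not reported here. Of 343 listed symbols 341 were measured. The dMSN pair differed by a chi-square of 172.6 per gene over 18695 genes and was counted as 2 samples. Promoter windows are from RefSeq GRCm38.p6, a build other than that of the counts.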

Additional observations from a re-analysis of the deposited data

Results flagged for a closer look

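Glul moved in opposite directions in the 2 lineages between precursors and young tissue, with a log2 ratio of 0.068 in yMSN over SP and -0.096 in yCA over HP. Each is 1 library against 1, the difference between them was not tested. With RLE scaling the fitted change of Glul in young tissue against precursors was -0.14 in place of -0.01, a shift larger than either ratio. Both are small beside the log2 change of 2.82 in dMSN against yMSN.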

How the results depend on the processing

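The 9 higher members of dMSN against yMSN and against SP kept their direction under all alternatives run, and only Aqp4 and Gjb6 missed the threshold in some. No paired analysis was possible because the compared groups share fewer than 2 replicate numbers. Leaving out a dMSN library leaves the fit with 1 mean per group no residual degree of freedom, so that was run in the lineage and stage model only: 6609 and 7073 genes were called in dMSN against yMSN. In young tissue against precursors 3590 to 7355 genes were called with a single library left out, lowest without dMSN 1. Members called in that comparison were 9 with 1 mean per group and with DESeq2 and 8 with limma voom, as Aqp4, Slc1a2 and (not by voom) Gja1 passed. Of the 9, 8 were higher and 1, Gja1, was lower, while all 8 by voom were higher. The share of all genes called was 50.1% with 1 mean per group, 40.4% with DESeq2 and 35.2% with voom.

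Striatal against hippocampal calls were 356 genes and 1 member with 1 mean per group, 60 genes with DESeq2, and 0 to 1515 genes (116 without yCA) and 0 to 4 members with a single library left out. The median yMSN share of the dMSN level was 15.6% with upper quartile scaling. Signs turned for Gja1 in dMSN against yMSN (-0.14 with upper quartile scaling, -0.0064 with a filter at 1 CPM) and for Glul in young tissue (0.062 without HP). With a library left out, striatal against hippocampal values ranged from -0.89 to 2.80 for Aqp4, -0.59 to 1.35 for Gja1, -1.46 to 1.63 for Gjb6, 0.13 to 2.52 for S100b, -0.45 to 1.03 for Slc1a2, -0.049 to 0.23 for Aldoc and -0.10 to 0.061 for Glul. The cause of these was not tested beyond the libraries they leave out. Depth limits S100b and Gfap in precursors, at 4 to 10 reads.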
